A study of Homo sapiens with 47 samples.

Results

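The subject here is the chromatin of the HIST1 histone gene clusters of human chromosome 6 in 2 melanoma cell lines, 451Lu and WM983B. The regions described are all deposited ATAC-seq peaks, H3K27ac peaks, H3K9me3 islands and intervals of a table named RRR that overlap 2 windows of build hg19. The first window (A) runs from 26.00 to 26.30 Mb and the second (B) from 27.75 to 27.88 Mb, 430 kb in all. They were chosen by position alone. Merged over all lists of an assay, the windows held 75 of 208946 ATAC regions, 61 of 93938 H3K27ac regions, 8 of 84641 H3K9me3 regions and 2 of 1848 RRR intervals. ATAC-seq finds open chromatin as the stretches that the transposase Tn5 can enter and cut. H3K27ac is an acetylation of histone H3 at active promoters and enhancers, and H3K9me3 is a methylation of histone H3 typical of heterochromatin.

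The groups were as follows. Both lines were profiled as parental cells and as cells resistant to vemurafenib, an inhibitor of the mutant kinase BRAF. In 451Lu, cells over-expressing the AP-1 subunits c-JUN and c-FOS (labelled AP1) were compared with cells carrying a vector. Cells with a short hairpin RNA against p150 (shp150) were compared with an NT control, and cells with both changes (shp150_AP1) with cells carrying vector and NT control (vector_NT). The labels give no drug state for the engineered cells and do not say what NT stands for, whether a line is 1 clone, or whether replicates were separate cultures. For H3K27ac there was 1 list per group, and for the other assays 2 libraries. Any p-value therefore measures only the spread between these libraries, which may be technical. The level of p150 was not analysed here, so the effect of the hairpin on its target was not checked. Markers of the melanocyte lineage were not checked either, because no gene annotation of build hg19 was used.

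The HIST1 clusters hold most human genes for the histones made in S phase, the part of the cell cycle in which DNA is copied. Their messages end in a stem-loop in place of a poly(A) tail, and the genes are strongly induced together by the factor NPAT in the histone locus body. Many H2A and H2B genes stand head to head and share 1 promoter stretch. p150, the product of CHAF1A, is the largest subunit of CAF-1, the chaperone that places new H3 and H4 on freshly copied DNA. The H3 and H4 genes of these clusters thus encode the kinds of histone that the complex carries.

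By RefSeq map order the clusters hold 48 histone genes, 32 from H1-1 to H4C8 in the first and 16 from H2BC13 to H2BC17 in the second. Of these, 6 encode linker histone H1, 9 encode H2A, 12 encode H2B, 10 encode H3 and 11 encode H4. The gene table is in build GRCh38.p14 and the deposited regions are in hg19, so no gene was placed on a region and genes are given by class only. The stretch also holds a non-histone gene, HFE. Histone regions below therefore means all regions of the windows, whatever gene they lie at. Promoter records, 250 bases before to 50 after the start, existed for 44 of the 48. The sequences were searched for 4 short motifs on both strands. TATAAA, the TATA box that positions the polymerase, was in 28 of the 44, against 11.5% of 35116 promoters of all genes. CCAAT, the box bound by NF-Y, was in 37 of the 44, against 34.6% of all promoters. It was in each of the 35 records of H1, H2A, H2B and H3 but in 2 of the 9 records of H4. The octamer ATTTGCAT, bound by OCT1 at H2B genes, was in 9 of 12 H2B, 7 of 9 H2A and 1 of 8 H3 promoters and in no H1 or H4 promoter, against 1.77% of all promoters. AAACACA, the H1 box, was in all 6 H1 promoters and in no other of the 44, against 5.64% of all promoters. Each motif was searched by itself, so matches that share letters (the end of TATAAA with the start of AAACACA, for example) count for both. A match is a run of letters and was not tested as a binding site.

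To show how promoters of these genes are built, 1 of each class is printed from RefSeq (GRCh38.p14). Given are the 150 bases before the start on the gene's own strand, with motif matches on either strand in capitals. Whether any of these promoters lies in a listed open region was not checked. Within each class the promoter with the most kinds of motif is shown, so the H4 example, which has a CCAAT box, is not typical of its class.
H1-4, plus strand, linker histone H1: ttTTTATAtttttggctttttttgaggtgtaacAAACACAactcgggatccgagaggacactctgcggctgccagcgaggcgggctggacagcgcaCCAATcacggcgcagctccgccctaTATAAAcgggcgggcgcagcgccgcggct
H2AC4, minus strand, H2A: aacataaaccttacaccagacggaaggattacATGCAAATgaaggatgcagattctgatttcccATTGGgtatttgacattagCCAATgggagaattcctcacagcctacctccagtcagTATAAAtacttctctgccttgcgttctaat
H2BC3, minus strand, H2B: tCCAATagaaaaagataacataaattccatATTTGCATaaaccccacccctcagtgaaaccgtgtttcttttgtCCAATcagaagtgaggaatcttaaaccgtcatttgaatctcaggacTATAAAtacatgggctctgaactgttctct
H3C1, plus strand, H3: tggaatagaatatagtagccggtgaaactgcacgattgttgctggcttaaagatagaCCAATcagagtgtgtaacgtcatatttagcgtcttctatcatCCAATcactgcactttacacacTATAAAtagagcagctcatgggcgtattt
H4C13, minus strand, H4: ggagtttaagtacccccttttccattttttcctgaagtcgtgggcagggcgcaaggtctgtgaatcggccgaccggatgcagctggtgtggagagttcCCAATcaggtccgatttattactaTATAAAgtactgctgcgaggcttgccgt
In each of the 5 promoters the TATA box nearest the start begins 28 to 30 bases before it. The octamer of H2AC4 is read on the opposite strand and that of H2BC3 on the gene's own strand, at 118 and 120 bases before the start.

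The lists differ in length, and the depth of sequencing behind them is unknown. ATAC lists held 42898 to 94550 peaks in 451Lu and 129339 to 147988 in WM983B. The smallest score in a list was 2.001 to 2.04 in 451Lu and 1.303 to 1.32 in WM983B, so the lists of the 2 lines stop at different scores and WM983B lists reach lower. Median peak width was 364 to 479 bp in the 451Lu lists and 170 to 190 bp in the WM983B lists. Counts of regions by line are therefore not like for like. Each score is the authors' own value. Scores were averaged over the 20 lists to choose which regions to name, and no change between groups is read from them. In WM983B, libraries with the same replicate number resembled each other more than libraries of the same group. Over all listed bases the Jaccard index, the shared bases divided by the bases of either list, was 0.578 and 0.609 for equal numbers and 0.510 and 0.509 for equal groups. Within the windows the corresponding values were 0.658 and 0.664 against 0.625 and 0.629. In 451Lu the same-group values of the parental and resistant lists were the higher ones, at 0.726 and 0.715 against 0.625 to 0.635 for the other pairs.

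Open chromatin of the histone windows was shared across lines and groups more often than that of the genome at large. Of the 75 regions, 49 in window A and 26 in window B, 27 (36.0%) were called in all 20 ATAC libraries, against 11.7% of all regions. A region counts as called where a listed peak covers at least 1 bp of it. Another 20 were missing from 1 to 4 libraries, so 47 were called in at least 16, and 14 were called in 4 or fewer. The shared regions were broad, with a median width of 1332 bp for the 27, against 992 bp for all regions called in all 20. The other 48 had a median of 518.5 bp. A merged region can widen with each list that calls it, so this last contrast is partly built in. The regions are numbered in map order, A1 to A49 and B1 to B26. Within their lists they were of middling to high score. The median called region outscored 51.3% to 65.7% of the peaks of its list in 451Lu and 66.5% to 72.9% in WM983B. The score of a region is that of its best peak, which raises its rank where several peaks fall in 1 region. WM983B lists had 96 to 106 peaks in 58 to 63 called regions, and 451Lu lists 43 to 66 peaks in 37 to 59. The ranges of the 2 lines are therefore not comparable.

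**Figure D1:**
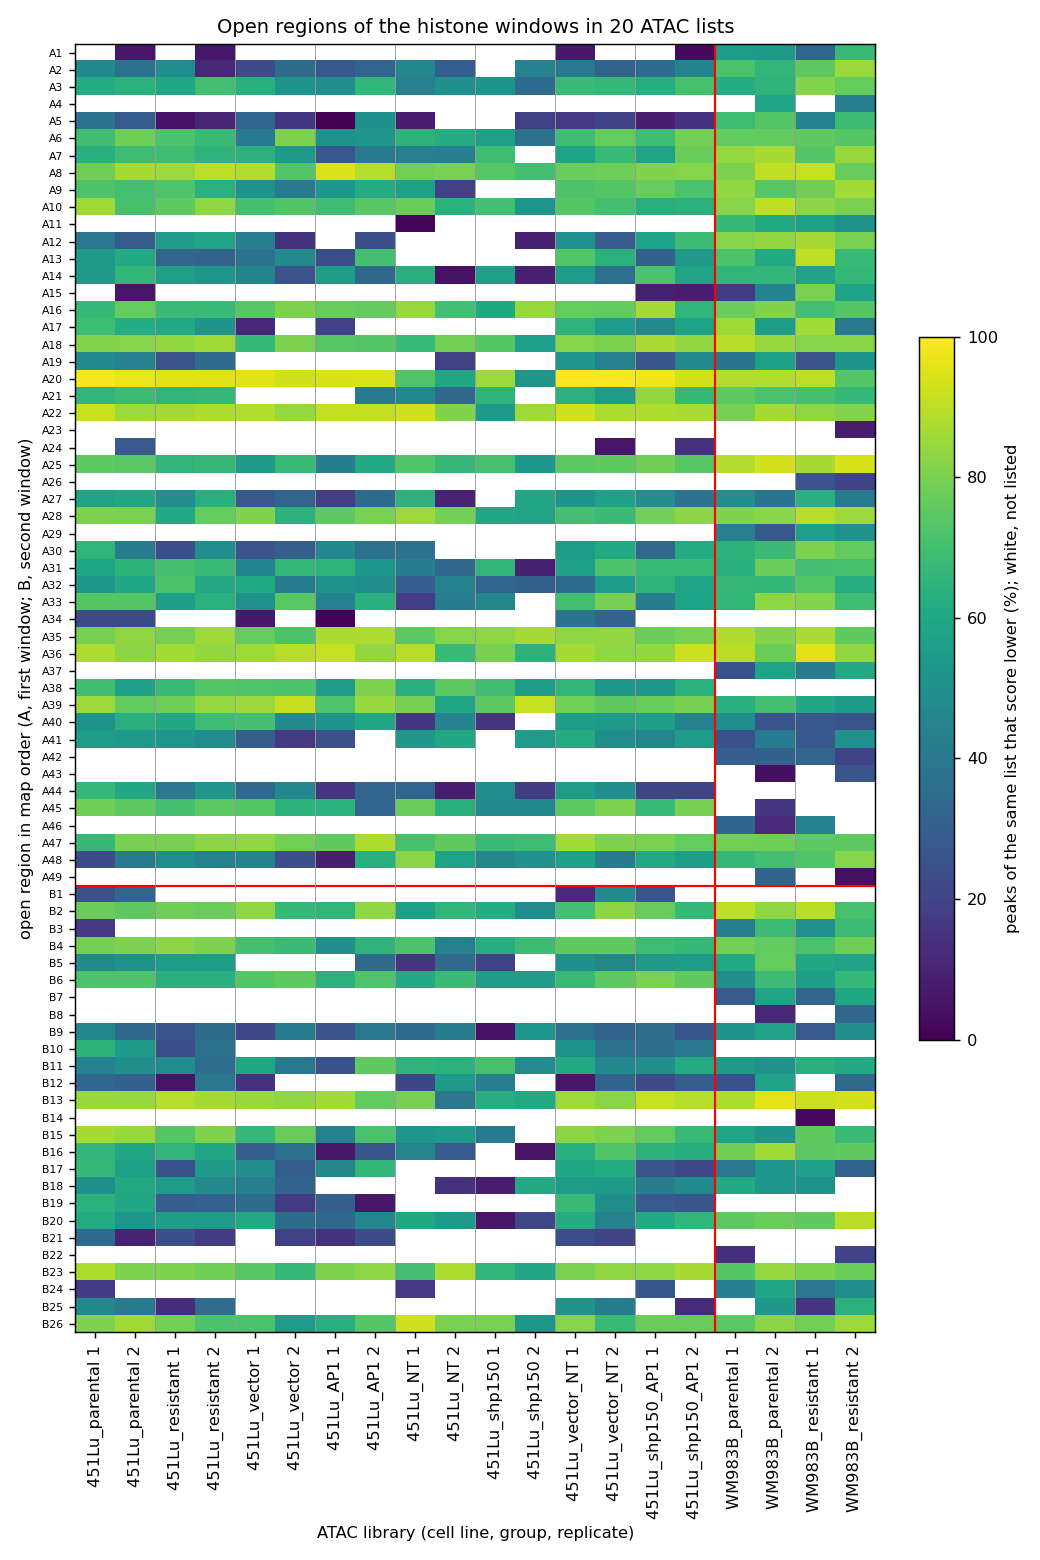
Open regions of both histone windows in map order (rows) in the 20 ATAC libraries (columns). Color gives the percentage of peaks of the same list that score lower than the best peak of the region, with white where no peak was listed. The 27 rows without white are called in every library, and the red lines divide the windows and the cell lines.

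The highest mean score over the 20 libraries belonged to A20, at 6:26140920-26142196 in window A. Such a mean leans on the lists with the higher scores, those of the parental, resistant, vector_NT and shp150_AP1 groups of 451Lu. Its scores were 81.6 and 67.6 in the parental and 54.4 and 56.9 in the resistant 451Lu libraries. They were 85.7 and 81.3 in vector_NT and 55.3 and 43.5 in shp150_AP1. These are scores of separate lists, which show no change between groups by themselves. A20 led the windows in 12 of the 20 libraries, 11 of them outside the NT and shp150 groups. In NT it ranked 14 and 19, with scores of 16 and 10.5, and in shp150 it ranked 1 and 19, with scores of 15 and 7.98. Its scores were 35.2 and 28.7 in vector and 27.4 and 30.1 in AP1 cells. In WM983B A20 ranked 5, 5, 5 and 24, and it led in none of the 4 libraries. There B2 (20.3) and B13 (28.5) led in the parental and A36 (26.6) and A25 (31.0) in the resistant libraries.

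The next highest mean scores in window A belonged to A22 (6:26157363-26158974), A36 (6:26223374-26224641), A8 (6:26043458-26044789) and A35 (6:26216381-26218292). Their mean scores were 27.8, 26.3, 24.5 and 23.3, against 38.6 for A20. In window B the highest mean scores belonged to B13 (6:27805679-27806906), B23 (6:27860451-27861629), B26 (6:27870124-27871477), B2 (6:27759035-27760813) and B4 (6:27774591-27776475), at 26.1, 22.4, 20.7, 19.7 and 18.7. All 10 were called in every library, so by definition none of them could be gained or lost as a whole. B13 scored 37.9 and 39.4 in parental and 41.1 and 38.2 in resistant 451Lu cells. In shp150_AP1 it scored 37.3 and 35.5, and in vector_NT 35.9 and 31.7. B13 thus reached at least 31.7 in all 8 of these lists, where B4 reached 18.4 to 34.0.

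Of the 75 regions, 8 were called only in 451Lu (10.7%, against 15.1% of all regions), 13 only in WM983B (17.3%, against 37.6%) and 54 in both lines (72.0%, against 47.3%). A38 (6:26233304-26235416, 2113 bp) and A44 (6:26271257-26271956, 700 bp) were called in all 16 libraries of 451Lu and in none of WM983B, 2 of 75 against 0.234% of all regions. A38 was the stronger of these, with scores from 8.34 to 25.2 (median 16.2), against 4.18 to 22.2 (median 7.77) for A44. A29 (6:26195623-26195812), A37 (6:26225157-26225618), A42 (6:26253574-26253702) and B7 (6:27787548-27787753) were called in all 4 WM983B libraries and in no 451Lu library. These 4 of 75 stand beside 4.70% of all regions, a similar share, and the WM983B lists reach lower scores. A37 overlaps an H3K9me3 island that was listed in 6 of the 8 libraries of 451Lu.

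In 451Lu, resistant cells listed fewer open bases in the histone windows than parental cells although their lists were longer. Peaks covered 42.5 and 43.1 kb of the windows in the resistant libraries and 48.4 and 50.4 kb in the parental ones. The group means were 42.8 ± 0.452 kb and 49.4 ± 1.40 kb (SD, n = 2 each). The groups did not overlap, and the difference was -6.56 kb, or -13.3% (exact two-sided permutation p = 0.333, the smallest that 2 libraries against 2 can give). Over the whole genome the listed bases differed the other way, by 6.70%. As a share of all listed bases the windows held 0.0891% and 0.0857% in resistant and 0.106% and 0.109% in parental cells, again without overlap (exact two-sided permutation p = 0.333).

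The difference in listed bases came mostly from regions that all 4 libraries called. Merged over the 4 lists of this comparison, the windows held 65 regions, of which 56 were called in all 4 (54.3% of all regions were). None was gained, which means called in both resistant and neither parental library, against 9.79% of all regions. Lost regions, called in both parental and neither resistant library, numbered 4, or 6.15%, against 3.96% of all regions. None was called in more resistant than parental libraries, against 26.1% of all regions, and 8 were called in fewer, against 16.0%. Regions called in all 4 libraries accounted for -4.77 kb of the difference and the other regions for -1.79 kb.

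The 4 lost regions were small. They lay at 6:26215611-26216141 (A34, 531 bp), 6:26217897-26218292 (a part of A35, 396 bp), 6:27754426-27754709 (B1, 284 bp) and 6:27759150-27759493 (a part of B2, 344 bp). In the parental lists A34 scored 6.71 and 6.75 and B1 scored 7.42 and 8.95. The part of A35 scored 7.42 and 5.99 and the part of B2 scored 3.65 and 8.65. Of the 4, 3 lay 125 to 387 bp from a region called in all 4 libraries, at the shoulder of a lasting open region, and B1 lay 4909 bp from one.

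With the hairpin against p150 together with AP-1, 451Lu cells again listed fewer open bases in the windows than their controls. The values were 39.5 and 40.7 kb in shp150_AP1 and 48.5 and 43.2 kb in vector_NT, with means of 40.1 ± 0.850 and 45.8 ± 3.71 kb (SD, n = 2 each). The groups did not overlap, and the difference was -5.71 kb, or -12.5% (exact two-sided permutation p = 0.333). All listed bases of the genome differed by 1.72% in the other direction. The share of listed bases in the windows was 0.0882% and 0.0870% against 0.104% and 0.0999%, without overlap (exact two-sided permutation p = 0.333). Of 66 regions, 54 were called in all 4 libraries (56.5% of all regions were), and these accounted for -4.27 kb of the difference.

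Of the 66 regions, 1 was gained (5.19% of all regions were) and 2 were lost (3.26% of all regions were). In shp150_AP1, 2 were called in more changed than control libraries (22.2% of all regions) and 7 in fewer (16.5% of all regions). The gained region, in A15 at 6:26097672-26097947, scored 4.82 and 4.65 and lay 5587 bp from the nearest region called in all 4. The lost regions were A34 (6:26215558-26216132), at 9.91 and 8.39 in the controls, and one in B21 (6:27840956-27841348), at 6.95 and 6.68. A34 was lost in the resistant cells too. It was listed in 1 of 2 vector and 1 of 2 AP1 libraries and in no NT, shp150 or WM983B library.

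The hairpin against p150 alone gave the shortest lists, and the windows and the genome were lower by similar percentages. Peaks covered 20.9 and 20.8 kb of the windows in shp150 and 29.5 and 25.6 kb in NT cells, with means of 20.8 ± 0.0806 and 27.5 ± 2.80 kb (SD, n = 2 each). The difference was -6.69 kb, or -24.3%, without overlap (exact two-sided permutation p = 0.333), while all listed bases of the genome differed by -28.6%. As a share of listed bases the order was the reverse, 0.114% and 0.115% in shp150 against 0.110% and 0.106% in NT (exact two-sided permutation p = 0.333). Of 57 regions, 31 were called in all 4 libraries, against 43.6% of all regions. None was gained (0.747% of all regions were), 2 were lost (7.51%), 4 were called in more shp150 libraries (11.3%) and 20 in fewer (37.8%). The lost regions were A9 at 6:26045493-26045925, with NT scores of 11.6 and 5.34, and a part of A25 at 6:26172593-26173096, with NT scores of 7.13 and 6.27. The second lay 10 bp from a region called in all 4 libraries. With lists of equal length, chosen after seeing the data, 9 regions were called in fewer and 8 in more shp150 libraries.

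The AP1 change without the hairpin gave a smaller difference in the same direction. Peaks covered 30.2 and 32.9 kb in AP1 and 35.4 and 33.4 kb in vector cells, with means of 31.6 ± 1.88 and 34.4 ± 1.47 kb (SD, n = 2 each). The groups did not overlap, and the difference was -2.84 kb, or -8.25% (exact two-sided permutation p = 0.333), beside -6.48% for all listed bases. The shares overlapped, at 0.126% and 0.121% against 0.125% and 0.126% (exact two-sided permutation p = 0.667). Of 58 regions, 46 were called in all 4 libraries (55.1% of all regions were). None was gained (1.60% of all regions) and 2 were lost (2.86%), and 5 each were called in more and in fewer AP1 libraries (15.4% and 21.8% of all regions). The lost regions were in A12 at 6:26066136-26066395, scored 9.23 and 5.38 in vector cells, and in B18 at 6:27834897-27835391, scored 9.17 and 7.31.

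**Figure D2:**
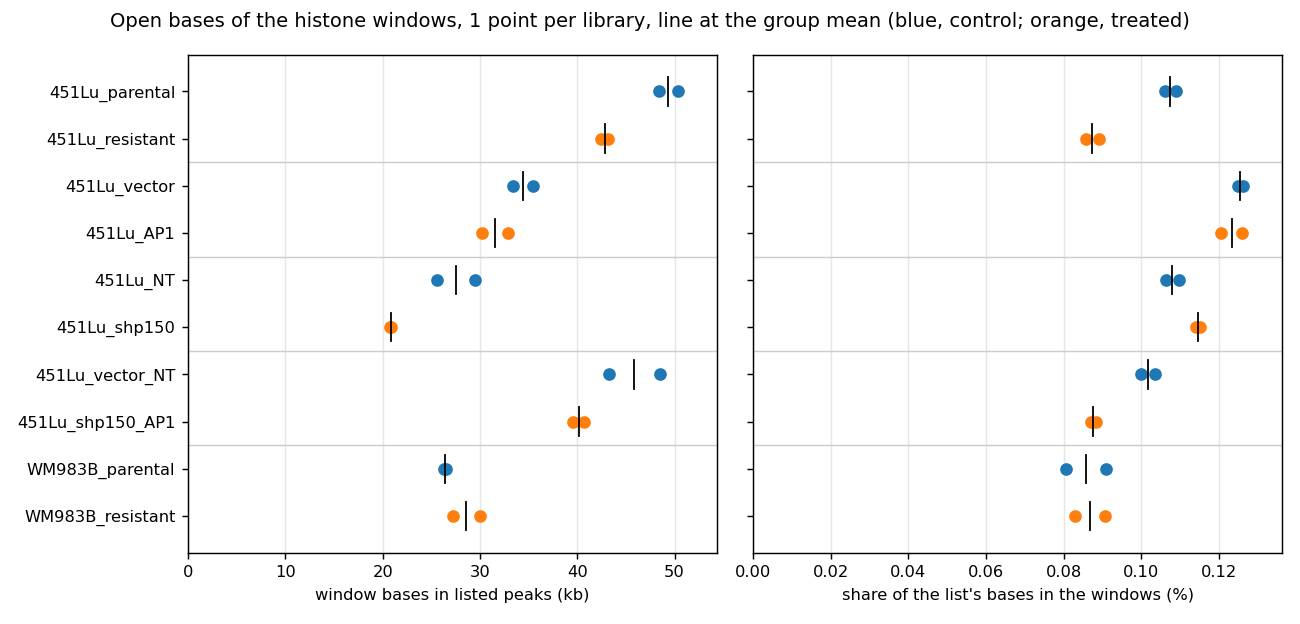
Bases of the histone windows inside listed ATAC peaks in kb (left) and as a percentage of all bases of the list (right), 1 point per library, with a line at the mean of the 2 libraries. Resistant and shp150_AP1 libraries of 451Lu lie below their controls in both panels, and shp150 libraries lie below NT on the left and above it on the right. AP1 libraries lie below vector on the left, and resistant WM983B libraries lie above parental ones there. On the right these last 2 pairs of groups overlap.

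In WM983B the difference between resistant and parental cells had the opposite sign, and the difference between the lines was not tested. Peaks covered 27.2 and 30.0 kb of the windows in resistant and 26.5 and 26.3 kb in parental cells, with means of 28.6 ± 1.96 and 26.4 ± 0.153 kb (SD, n = 2 each). The difference was 2.16 kb, or 8.19%, without overlap (exact two-sided permutation p = 0.333). All listed bases differed by 7.02% in the same direction. The shares overlapped, at 0.0906% and 0.0829% against 0.0908% and 0.0807% (exact two-sided permutation p = 1). The WM983B lists split the windows into 108 narrower regions, of which 67 were called in all 4 libraries (38.0% of all regions were). In resistant cells 1 was gained (1.47% of all regions) and 2 were lost (1.22%), and 15 each were called in more and in fewer resistant libraries (24.2% and 22.5% of all regions). The gained region was A26 (6:26175796-26175920), with scores of 3.87 and 4.55. The lost ones were parts of A47 (6:26284916-26285028) and A48 (6:26295958-26296082), with parental scores of 7.05 and 3.84, and of 5.47 and 4.94. Leaving out 1 library relaxes the rule and gave 3 to 9 gained and 4 to 7 lost.

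Among open regions called in all 4 libraries of a comparison, more were narrower than wider in each changed 451Lu group. The same was so over the genome. The share of narrower ones was above that of the genome in resistant and shp150_AP1 cells, near it in AP1 cells and below it in shp150 cells. A region was called narrower when both changed libraries covered fewer of its bases than both controls. In resistant cells 20 of 56 regions were narrower (35.7%, against 25.9% of all regions called in all 4 libraries) and 2 were wider (21.1% of all regions). In shp150_AP1 cells 20 of 54 were narrower (37.0%, against 24.5%) and 5 were wider (17.8% of all regions). With AP1 alone 12 of 46 were narrower (26.1%, against 21.7%) and 2 were wider (12.2%). With shp150 alone 12 of 31 were narrower (38.7%, against 44.6%) and 1 was wider (3.52%). In resistant WM983B cells 2 of 67 were narrower (7.91% of all regions) and 10 were wider (18.3% of all regions).

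In log2 of mean width, changed over control, the median of the histone regions was -0.11 in resistant cells, beside -0.02 for all regions. It was -0.12 in shp150_AP1, beside -0.03, and -0.13 in AP1, beside -0.05. In shp150 it was -0.22, beside -0.24, and in resistant WM983B cells 0.09, beside 0.07. The histone regions are wider than others to begin with, at a median of 793.5 bp in parental 451Lu cells against 559.5 bp. Among regions of at least 800 bp in the controls, 14 of 28 were narrower in resistant cells (30.0% of all such regions) and 10 of 23 in shp150_AP1 (25.9%). The counts were 6 of 19 in AP1 (28.7%) and 6 of 8 in shp150 (60.1%).

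The 6 regions A33, A38, A39, A40, B17 and B19 were narrower in both resistant and shp150_AP1 cells, 30.0% of either set of 20. Over all regions the shared ones made up 32.4% of those narrower in resistant and 34.7% of those narrower in shp150_AP1 cells, so the overlap in the windows was near that of the genome. B19 covered 317 and 347 bp in resistant and 620 and 666 bp in parental cells. In shp150_AP1 it covered 295 and 228 bp, against 699 and 469 bp in vector_NT. In AP1 cells B19 went the other way, with 583 and 302 bp against 254 and 218 bp in vector cells. A33 covered 788 and 562 bp in resistant and 1024 and 1034 bp in parental cells, 534 and 507 bp in shp150_AP1 and 1004 and 935 bp in vector_NT. It was also narrower in AP1, at 512 and 421 bp against 871 and 793 bp, and it was not called in all 4 libraries of the shp150 comparison. Of the 6, A39 was also narrower in shp150, at 801 and 628 bp against 879 and 815 bp in NT.

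**Figure D3:**
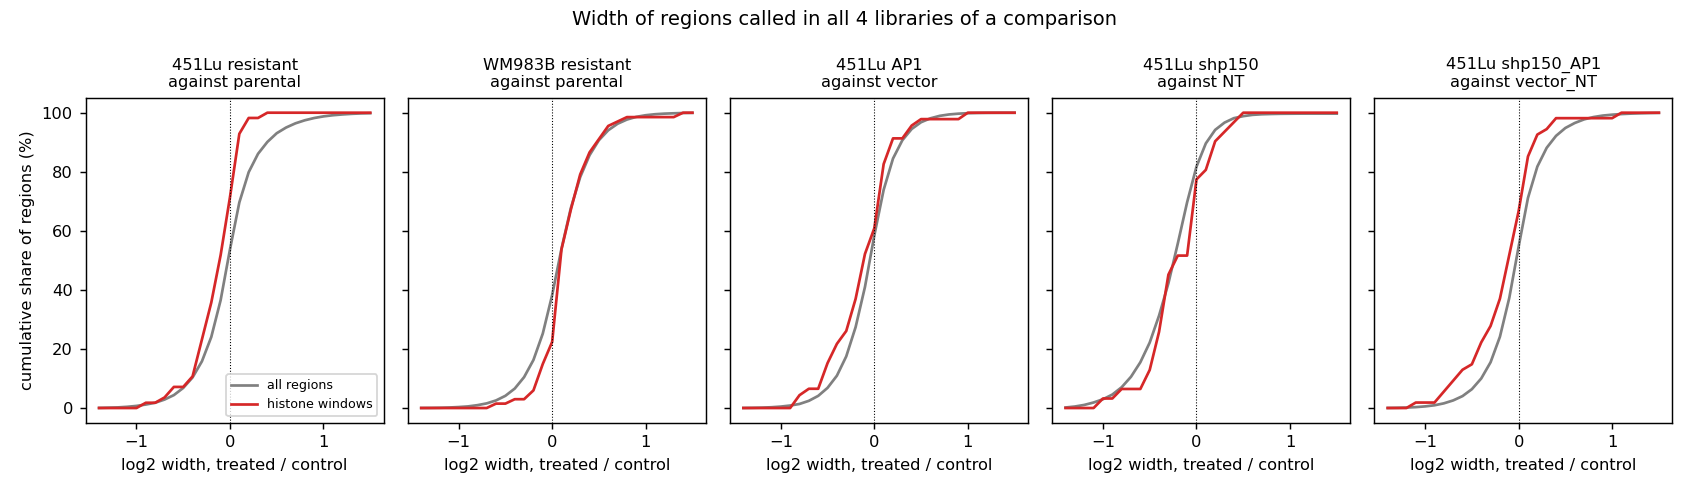
Cumulative share of regions (vertical axis, percent) by the log2 ratio of mean covered width, treated over control (horizontal axis), for histone window regions in red and all regions in grey, 1 panel per ATAC comparison. In resistant and shp150_AP1 451Lu cells the red curve runs to the left of the grey one around a ratio of 0. In WM983B it runs to the right of the grey one up to a ratio of 0 and close to it above. In shp150 the curves cross.

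Acetylation was common at the histone windows in each of the 4 H3K27ac lists. Of 61 H3K27ac regions, 25 (41.0%) were listed in all 4 libraries, against 12.9% of all regions. The region at 6:26172286-26172872, which overlaps the open region A25, had the highest score of the windows in 3 of the 4 lists, at 47.1 in parental and 96.9 in resistant 451Lu and 66.8 in resistant WM983B cells. In parental WM983B cells it scored 52.7, and the region at 6:26044443-26045154, which overlaps A8, led with 58.0. The region at 6:26273529-26274128 was listed only in 451Lu, with scores of 21.7 in parental and 62.1 in resistant cells. There is 1 list per group, so no difference between groups has a replicate check.

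Open regions of the windows had an H3K27ac peak within 1 kb more often than open regions of the genome in all 4 groups. Direct overlap was above the genome share in 451Lu and near it in WM983B. Of the 60 regions open in both parental 451Lu libraries, 20 overlapped an H3K27ac peak (18.5% of all open regions did) and 39 had one within 1 kb (27.2%). In resistant 451Lu cells 22 of 60 overlapped one (19.4%) and 44 had one within 1 kb (33.0%). In parental WM983B cells the counts were 12 of 77 (14.5%) and 47 of 77 (33.6%). In resistant WM983B cells they were 11 of 75 (15.4%) and 44 of 75 (31.2%). Of the 27 regions open in all 20 libraries, 8 (29.6%) overlapped an H3K27ac peak in all 4 lists, near the 25.0% of all regions open in all 20. Another 8 (29.6%) overlapped none in any list, against 41.2%.

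Between parental and resistant cells the acetylated stretch went in opposite directions in the 2 lines, as did the length of the lists. The lists are of replicate 1 in 451Lu and of replicate 2 in WM983B, so line and replicate number cannot be told apart. The smallest score was 1.89 in the parental and 1.44 in the resistant 451Lu list. In WM983B it was 1.39 in the parental and 1.81 in the resistant list. In 451Lu, H3K27ac peaks covered 16.5 kb of the windows in the parental and 23.0 kb in the resistant list, of 32304 and 51710 peaks. Of 54 regions, 16 were listed only in resistant cells (29.6%, against 50.3% of all regions), 3 only in parental cells (5.56%, against 19.9%) and 35 in both (64.8%, against 29.9%). In WM983B the peaks covered 18.3 kb in the parental and 14.4 kb in the resistant list, of 50336 and 36022 peaks. As a share of all listed bases the differences had the other sign in both lines, with 0.120% in parental and 0.106% in resistant 451Lu cells and 0.0880% in parental and 0.0930% in resistant WM983B cells. Of 48 WM983B regions, 7 were listed only in resistant cells (14.6%, against 21.2%), 14 only in parental cells (29.2%, against 43.8%) and 27 in both (56.2%, against 35.0%). In either line the histone windows had a larger share of regions in both lists than the genome did. With lists of equal length in 451Lu the counts were 10 unique to the resistant and 5 to the parental list.

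H3K9me3, profiled in 451Lu only, was scarce in the windows, with islands covering 0.977% to 2.88% of their bases. Over the genome the islands of a library covered 267 to 396 Mb. The windows held 0.00151% to 0.00368% of these bases, beside 0.0807% to 0.126% of the bases of an ATAC list. The 8 islands are numbered in map order. Only island 5 (6:26287001-26291600), toward the end of window A, was listed in all 8 libraries (20.1% of all island regions were). It overlapped no open region. Its fold of ChIP over input, the authors' value, ran from 1.54 to 2.72. Island 1 (6:26017601-26020600) was listed in 7 libraries. It reached the open region A2 in shp150_AP1 replicate 2 and A3 in vector_NT replicate 2, and overlapped neither in the other 5. Island 3 (6:26224401-26228000) was listed in 6 libraries and overlapped A37, a region open in WM983B libraries only, in all 6. It reached A36, one of the highest-scoring open regions, in resistant replicate 1 alone. Its fold was 5.55 and 3.11 in parental, 4.62 and 4.10 in vector_NT, 2.49 in the 1 shp150_AP1 library that listed it and 1.05 in that 1 resistant library. This last entry rests on 139 ChIP reads and 173 input reads and has a false discovery rate of 0.272. Islands here rest on 61 to 156 ChIP reads each, which limits the precision of every fold. The shp150_AP1 library that listed island 3 is replicate 1. The labels hold no input sample for it, so the input behind its folds is not known.

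Of 7 island regions in resistant and parental cells, 1 was lost (17.7% of all were) and none gained (3.06%). The lost one was island 2 (6:26105201-26108800), with 73 ChIP against 30 input reads and a fold of 3.54 in 1 parental library and 137 against 106 reads and a fold of 1.74 in the other. Islands covered 9.20 and 4.20 kb of the windows in resistant and 7.40 and 12.4 kb in parental cells, which overlap (exact two-sided permutation p = 0.667). In shp150_AP1 and vector_NT cells, none of 5 island regions was gained (1.87% of all were) or lost (13.8% of all were). The covered bases were 7.80 and 5.60 kb in shp150_AP1 and 6.0 and 6.80 kb in vector_NT, which overlap (exact two-sided permutation p = 1).

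**Figure D4:**
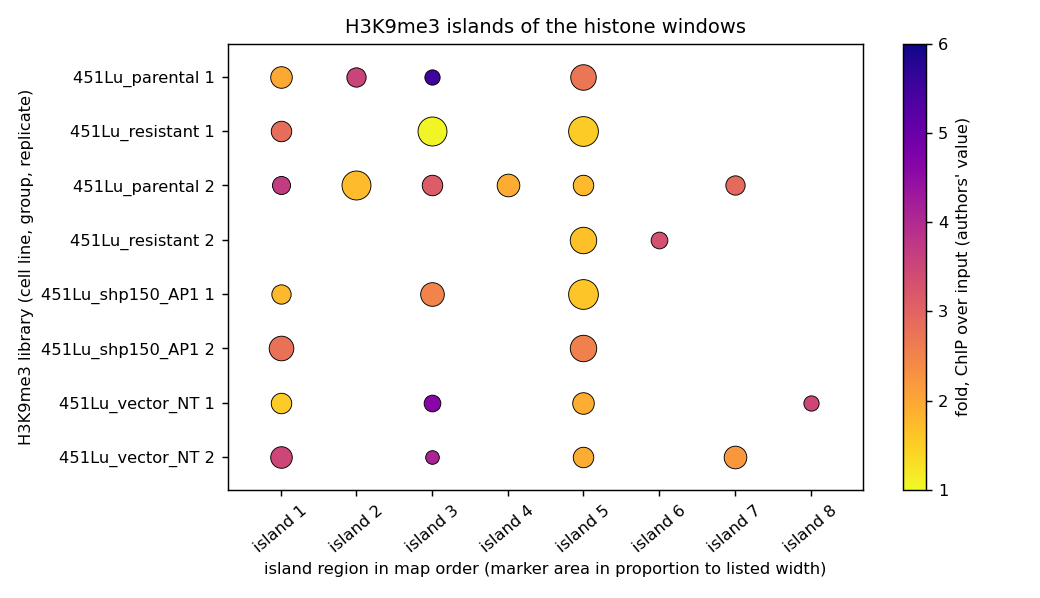
H3K9me3 islands of the histone windows (horizontal axis, in map order) in the 8 libraries of 451Lu (vertical axis), with marker area in proportion to the listed width and color for the authors' fold of ChIP over input. Only island 5 is listed in every library (20.1% of all island regions are), and island 2 is listed only in both parental libraries.

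In the authors' deposited table of RRR intervals, 2 intervals overlapped the windows. Intervals run in steps of 20 kb, and the second coordinate given here is where the last step starts. The interval from 6:25960000 to 26300000 spans window A, and its log2 fold change in the authors' deposited table is 0.65 with a standard error of 0.28 and an adjusted p of 0.0261. The interval from 6:27840000 to 27880000 covers the end of window B, and the authors' deposited table gives it a log2 fold change of 0.50 with a standard error of 0.45 and an adjusted p of 0.300. Of these, 1 passed an adjusted p of 0.05, beside 74.5% of all 1848 intervals. The mean normalized count in the authors' deposited table was 10294 for the first interval and 220.2 for the second, against a median of 1082. The table states neither the assay nor the groups behind the fold change, so its sign has no direction here.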

How the data were processed

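The members and lists were chosen with earlier results of these data known. Genome build hg19 and the tools MACS2, SICER, Bowtie2, Picard, deepTools and STAR 2.5.3 come from the submitters' processing notes, without roles. Which tool made which file is not given in the sources used here, read trimming and Tn5 shifts included. The authors deposited 1 list per library, with a score per ATAC or H3K27ac peak, and for H3K9me3 islands the count of ChIP and input reads, a p-value, a false discovery rate and a fold (ratio) over input. The RRR table's mean normalized count (a signal) and log2 fold change are the authors' deposited values. Lists on chromosomes 1 to 22 and X were merged per comparison where they overlapped by at least 1 bp (Python 3.11.15, NumPy 2.4.6; code tested on simulated data). Covered kb was compared by exact permutation, 2 libraries against 2, which cannot go below p = 0.333. Named are every region gained or lost in ATAC, the 5 best-scoring regions per window and the widest changed H3K9me3 islands; other regions were chosen after their values were seen. The 15 samples without a list here (H3K27ac, RNA and input) were not analysed here. Alternatives were leaving out each library, equal-length lists, stricter scores, half-covered regions, a replicate block and shares of listed bases.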

Additional observations from a re-analysis of the deposited data

Results flagged for a closer look

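The open bases of the histone windows differed between resistant and parental cells in opposite directions in the 2 lines, by -6.56 kb in 451Lu and by 2.16 kb in WM983B. In each line both resistant libraries lay on the same side of both parental ones. The difference between the lines was not tested, and the smallest exact p that 2 lines of 4 libraries allow is 0.0556. The WM983B lists reach lower scores than the 451Lu lists, and as a share of listed bases the WM983B groups overlapped.

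The bases in H3K27ac peaks differed the other way, by 6.54 kb in 451Lu and by -3.88 kb in WM983B, with 1 list per group and no test of the difference. The H3K27ac lists differ in length in the same directions, and they are of replicate 1 in 451Lu and of replicate 2 in WM983B. As a share of listed bases the order turned in both lines, from 0.120% to 0.106% between parental and resistant 451Lu cells and from 0.0880% to 0.0930% in WM983B.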

How the results depend on the processing

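Of 217 alternative values for 40 results, 153 kept their direction or stayed within 1.5 times the count, 61 counts moved further and 3 values reversed. The difference in open bases kept its sign in every ATAC comparison under all alternatives except 1, the share of listed bases in shp150 against NT (0.00654 percentage points in place of -6.69 kb). Leaving out 1 library gave -7.55 to -5.57 kb for resistant 451Lu, 0.776 to 3.55 kb for WM983B, -4.16 to -1.51 kb for AP1, -8.67 to -4.71 kb for shp150 and -8.33 to -3.08 kb for shp150_AP1. For H3K9me3 it gave -5.70 to -0.700 kb for resistant cells and -0.800 to 1.40 kb for shp150_AP1, where the sign turned without shp150_AP1 replicate 1 (-0.800 kb) or vector_NT replicate 1 (-0.100 kb). With a replicate block (differences within replicate number) the differences are by construction the same, for instance -6.56 kb for resistant 451Lu, and exact sign flips of 2 pairs cannot go below p = 0.5. The numbers share no source in the labels.

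Counts of gained and lost regions are small and moved easily. Regions merged over all 20 lists gave 2 lost in resistant 451Lu, 0 lost in WM983B, 1 lost in AP1 and 1 lost in shp150. A score of at least 5 gave 0 gained and 1 lost in WM983B, 5 lost in shp150, and 0 gained and 4 lost in shp150_AP1. Half-covered regions gave 2 gained in WM983B and 0 islands lost in resistant cells, where a false discovery rate of at most 0.01 gave 2 lost. Equal-length lists gave 1 gained and 1 lost in shp150. Leaving out 1 library, which relaxes the rule, gave 3 to 9 gained and 4 to 7 lost in WM983B, 0 to 3 gained and 2 to 4 lost in AP1, 0 to 2 gained and 4 to 9 lost in shp150, and 1 to 2 gained and 3 to 5 lost in shp150_AP1. For H3K9me3 it gave 0 to 1 gained and 1 to 3 lost in resistant cells and 0 to 1 lost in shp150_AP1. Chosen after seeing the data, regions called in fewer libraries numbered 14 in resistant 451Lu and 9 in shp150 with equal-length lists, and 8 in AP1 with a score of at least 5. Regions called in more libraries numbered 8 in shp150 with equal-length lists, and with a score of at least 5 numbered 1 in resistant 451Lu and 1 in shp150. Narrower regions numbered 28 to 32 in resistant 451Lu (32 without parental replicate 1), 10 to 17 in WM983B, 18 to 28 in AP1, 15 to 21 in shp150 and 26 to 30 in shp150_AP1 when 1 library was left out. Equal-length H3K27ac lists in 451Lu gave 10 regions unique to the resistant and 5 to the parental list. The causes were not tested beyond the relaxed rule.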
